A study of Mus musculus with 11 samples.

Results

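Matrix metalloproteinases are zinc-dependent enzymes that cut collagens, elastin and other proteins of the extracellular matrix, and most are secreted as inactive precursors that are opened by other proteases. The tissue inhibitors of metalloproteinases (Timp proteins) bind the active site of these enzymes and block it. In skin, Langerhans cells and their monocyte precursors have to pass the basement membrane, a sheet rich in type IV collagen, when they enter or leave the epidermis, and Mmp2 and Mmp9 are the gelatinases known for cutting that collagen. The set described here held 7 metalloproteinases (Mmp2, Mmp8, Mmp9, Mmp12, Mmp13, Mmp14 and Mmp19) and 3 inhibitors (Timp1, Timp2 and Timp3), found by gene symbol among the 21860 genes of the normalized count table. All 10 were present in the table, and 9 reached at least 10 normalized counts in at least 2 libraries and were tested with the 13095 genes that did so.

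RNA was sequenced in bulk from 11 samples of CD11b-low EpCAM+ cells, sorted on day 6 from cultures of mouse bone marrow monocytes that give Langerhans-like cells. There were 3 libraries of TGFβ/IL-34/Jag1/FICZ, 3 of TGFβ/IL-34/Jag1, 2 each of TGFβ/IL-34/FICZ and of TGFβ/IL-34, and 1 of Jag1 only, which had GM-CSF with the Notch ligand Jag1. GM-CSF, a growth factor for monocytes, was present in every culture at 20 ng/ml, and all groups but Jag1 only received IL-34 (8 µg/ml) with TGFβ (5 ng/ml), which direct monocytes toward Langerhans cells. FICZ is a ligand of Ahr, the aryl hydrocarbon receptor. The study calls it an agonist, whereas the deposited design text says antagonist. Jag1 was presented by OP9, a line of mouse stromal cells engineered to display it, so a Jag1 culture also holds stromal cells. The labels describe every sample as a culture with OP9. The 5 defining stroma markers (Col1a1, Col1a2, Col3a1, Bgn and Pdgfrb) nevertheless summed to 7.58 to 38.0 normalized counts in the 4 libraries without Jag1, with Col1a2 at 0 in each, and to 301 to 3752 in the 7 libraries with Jag1. No library of OP9 cells without Jag1 was analysed here, so the ligand and the stroma that carries it cannot be told apart. In bulk samples, fewer cells of a type and less RNA per cell cannot be told apart either.

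The libraries held 21.3 to 27.8 M normalized counts, about 20.7 to 24.2 M reads, and 1 read was worth 0.897 to 1.15 normalized counts. At this depth a 0 leaves room for 3 reads (2.69 to 3.46 normalized counts), which covers counting error only. Of the genes behind the sort, Epcam was lowest in the Jag1 only library, at 657 against 3952 to 14377 in the other 10. Cd207, the Langerhans cell lectin langerin, was at 1366 to 1784 in TGFβ/IL-34/Jag1 and at 6.21 to 157 in the other 8 libraries. The keratinocyte markers Krt5 and Krt14 were at 0 in every library.

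The stretch of 250 bases before the annotated start of transcription is shown for the 4 members with the largest differences in the tested comparisons of 2 groups. It was read from the GRCm39 mouse genome at the canonical transcripts of GENCODE vM39, and each lies on the plus strand. Mmp8 is at chr9:7558207-7558456, Mmp12 at chr9:7347124-7347373, Mmp13 at chr9:7272264-7272513 and Timp3 at chr10:86135986-86136235. Capitals mark matches, on either strand, to the AP-1 site TGACTCA, read as its complement in Mmp12, and to GCGTG, the core of the site that Ahr binds. The motif TGGGAA of the Notch effector RBPJ, had no match in these 4 windows.
Mmp8: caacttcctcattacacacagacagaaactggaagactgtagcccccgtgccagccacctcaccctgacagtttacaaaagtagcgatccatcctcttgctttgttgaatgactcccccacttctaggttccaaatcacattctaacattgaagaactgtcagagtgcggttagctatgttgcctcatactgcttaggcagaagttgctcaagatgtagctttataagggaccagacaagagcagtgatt
Mmp12: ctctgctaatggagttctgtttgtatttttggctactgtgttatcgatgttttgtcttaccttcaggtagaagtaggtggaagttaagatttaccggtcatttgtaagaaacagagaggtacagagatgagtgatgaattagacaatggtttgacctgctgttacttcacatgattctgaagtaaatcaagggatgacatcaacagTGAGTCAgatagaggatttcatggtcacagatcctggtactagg
Mmp13: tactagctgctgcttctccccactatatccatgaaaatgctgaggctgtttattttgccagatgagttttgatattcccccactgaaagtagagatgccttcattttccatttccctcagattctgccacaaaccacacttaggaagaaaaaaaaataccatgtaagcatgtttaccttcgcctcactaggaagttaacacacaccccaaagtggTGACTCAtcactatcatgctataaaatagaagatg
Timp3: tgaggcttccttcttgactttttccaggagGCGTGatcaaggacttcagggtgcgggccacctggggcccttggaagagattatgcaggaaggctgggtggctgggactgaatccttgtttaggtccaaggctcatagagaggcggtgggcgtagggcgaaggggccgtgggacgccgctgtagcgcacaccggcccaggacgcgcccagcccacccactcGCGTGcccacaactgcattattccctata
The AP-1 letters stood 44 bases before the start of Mmp12 and 35 bases before that of Mmp13, and were also present for Mmp9 and Mmp19. That made 4 of 10 members, against 3.28% of the windows of 13070 genes. GCGTG stood 220 and 29 bases before the start of Timp3 and was found in 3 of 10 members (Mmp9, Timp1 and Timp3), against 40.0% of all windows. TGGGAA was found in 4 of 10 members (Mmp2, Mmp9, Mmp14 and Timp1), against 21.9%. The window of Mmp8 held none of the 3 motifs, and that of Mmp9, which was not tested, held all 3. The matches did not overlap each other, and a match describes letters only.

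Per kilobase of canonical transcript, Mmp12, the macrophage elastase, was the most abundant member, with a median over the 11 libraries of 3036 normalized counts per kb. Mmp14, a membrane-bound collagenase that also activates pro-Mmp2, came next with 1920. The other metalloproteinases had medians of 132 (Mmp8), 103 (Mmp19), 19.3 (Mmp2), 7.85 (Mmp13) and 0.749 (Mmp9) per kb, and the inhibitors had 38.0 (Timp2), 34.3 (Timp1) and 15.1 (Timp3) per kb. Mmp12 and Mmp14 were thus far above the rest of the set in transcript level. Mmp12 made up 81.7% to 82.1% of the summed level per kb of the 7 metalloproteinase members in TGFβ/IL-34 and 49.2% to 62.0% in TGFβ/IL-34/Jag1. These sums leave out Mmp25, an abundant metalloproteinase outside the set, and with it Mmp12 made up 68.5% to 69.0% and 32.3% to 49.7%. The summed level per kb of the 7 members was 216 and 239 times the summed inhibitor level in the 2 TGFβ/IL-34 libraries, 22.9 and 219 times in TGFβ/IL-34/FICZ, 49.1 to 101 times in TGFβ/IL-34/Jag1 and 18.6 to 65.2 times in TGFβ/IL-34/Jag1/FICZ. It was 31.4 times in Jag1 only. With Mmp25 added the ratios were 258 and 283, 31.1 and 286, 74.1 to 154, 32.4 to 133 and 76.9 in the same order. These ratios compare transcript levels and say nothing of enzyme activity.

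**Figure D1:**
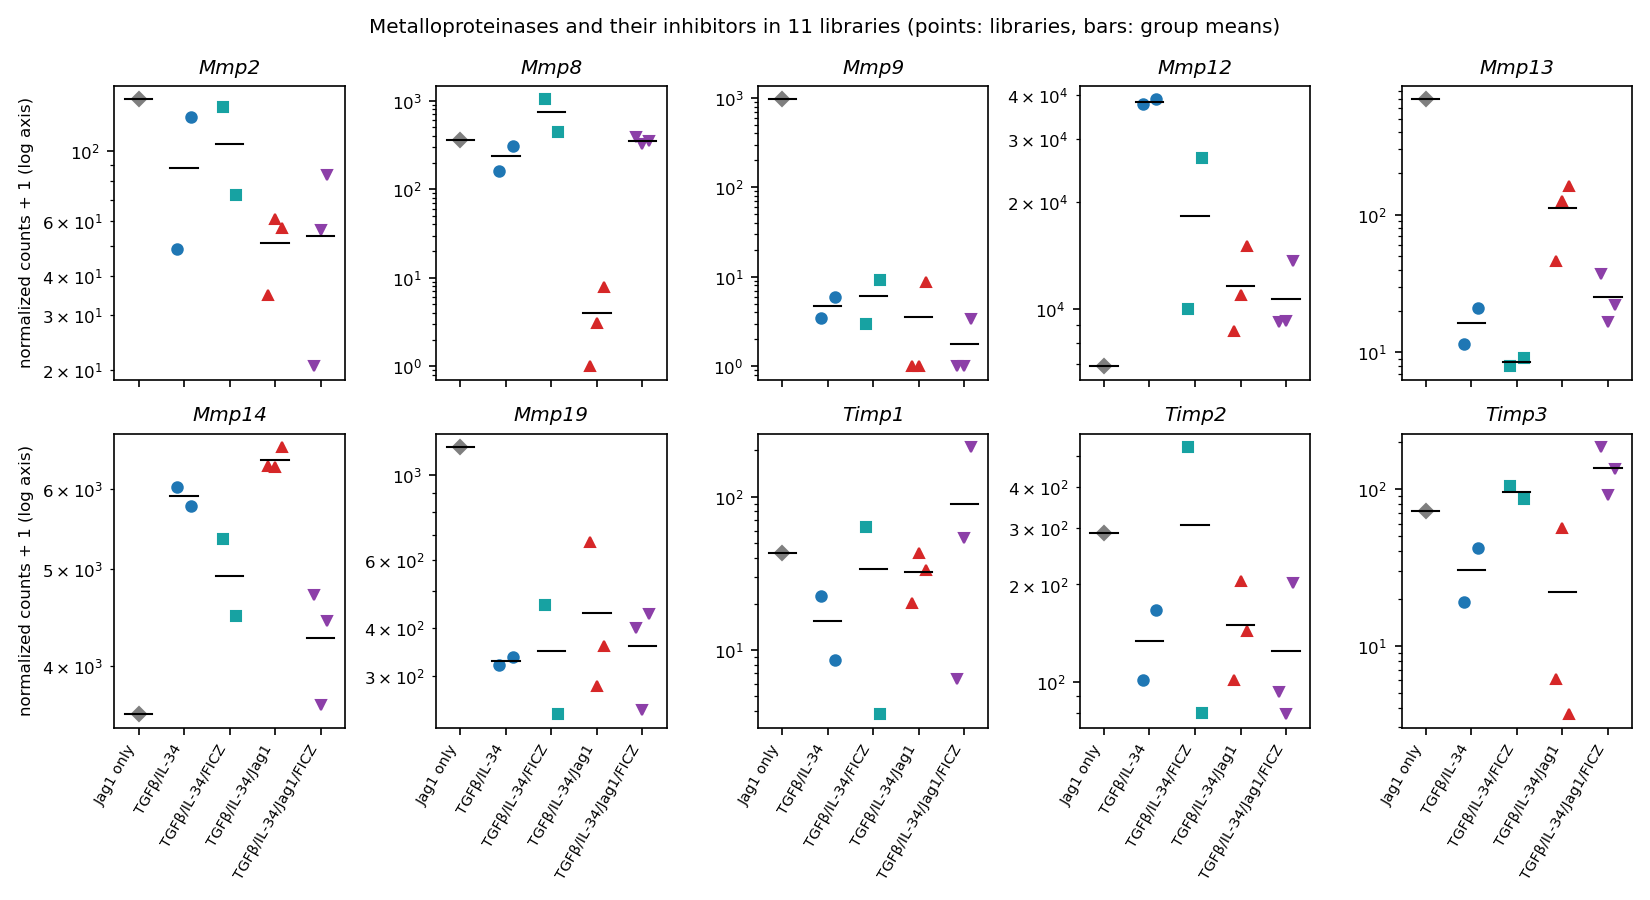
Normalized counts + 1 of the 10 members (log axis) in each library of the 5 culture groups, with points for libraries and bars for group means. Mmp8 lay at 0 to 6.87 in TGFβ/IL-34/Jag1 and at 159 or more in every other library, and Mmp9 lay at 961 in Jag1 only and at 8.29 or less elsewhere.

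Mmp8, the collagenase best known from neutrophil granules, was nearly absent in one group only. It was at 159 and 308 normalized counts in the TGFβ/IL-34 libraries and at 1036 and 438 in TGFβ/IL-34/FICZ. With TGFβ/IL-34/Jag1 the values were 0, 2.08 and 6.87, and with TGFβ/IL-34/Jag1/FICZ they were 386, 320 and 349. Jag1 only had 357. The TGFβ/IL-34/Jag1 libraries were below all others, and 2 of the 3 were at or under the level of 3 reads. Compared with TGFβ/IL-34, Jag1 lowered Mmp8 by a log2 fold change of −6.26 (SE 0.730, 95% interval −7.89 to −4.64, adjusted p 0.000921, limma with Benjamini-Hochberg adjustment), on the log2(value + 1) scale used for all fold changes here. With so few reads in one group this size depends on the added 1. FICZ added to Jag1 raised it by 6.92 (SE 0.653, 95% interval 5.47 to 8.38, adjusted p 0.000104, limma), and each of the 3 pairs of libraries that share an experiment code rose, by 8.60, 6.70 and 5.47. The call of the Jag1 effect was kept under all 16 alternatives run for it and that of FICZ with Jag1 under all 17.

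Without Jag1, FICZ gave a log2 difference in Mmp8 of 1.60 (95% interval −0.18 to 3.38, adjusted p 0.297, limma), and the groups did not overlap. The FICZ effect was larger with Jag1 than without it by 5.32 (SE 1.03, adjusted p 0.0430 for the interaction, limma). This difference passed in 9 of 21 alternatives, among which its adjusted p ranged from 0.0109 to 0.279. In the presence of FICZ, Jag1 gave a log2 difference of −0.94 (SE 0.730, 95% interval −2.56 to 0.68, adjusted p 0.427).

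Like Mmp8, neutrophil markers as a sum were lower with Jag1 without FICZ and higher with FICZ, but they differed from it for Jag1 with FICZ. The summed level of 13 such genes, Mmp8 not included, was 596 and 2047 in TGFβ/IL-34, 9384 and 4199 in TGFβ/IL-34/FICZ, 294 to 408 in TGFβ/IL-34/Jag1 and 9957 to 14648 in TGFβ/IL-34/Jag1/FICZ. Of the 12 tested, 10 rose with FICZ in the presence of Jag1 and none fell, against 10.9% and 6.71% of all genes. With Jag1 without FICZ, 2 fell and none rose, against 3.96% and 2.64% of all genes. The sum in TGFβ/IL-34/Jag1/FICZ was above that of both TGFβ/IL-34/FICZ libraries, whereas Mmp8 was below them. Elane, neutrophil elastase, reached 2094 to 3694 in TGFβ/IL-34/Jag1/FICZ against 0 to 9.07 in TGFβ/IL-34/Jag1. Among the defining markers, Ly6g was at 0 in 10 libraries and at 11.4 in one TGFβ/IL-34 library, and Mpo was at 0 to 27.2. The part of these markers in the Mmp8 result was not tested.

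**Figure D2:**
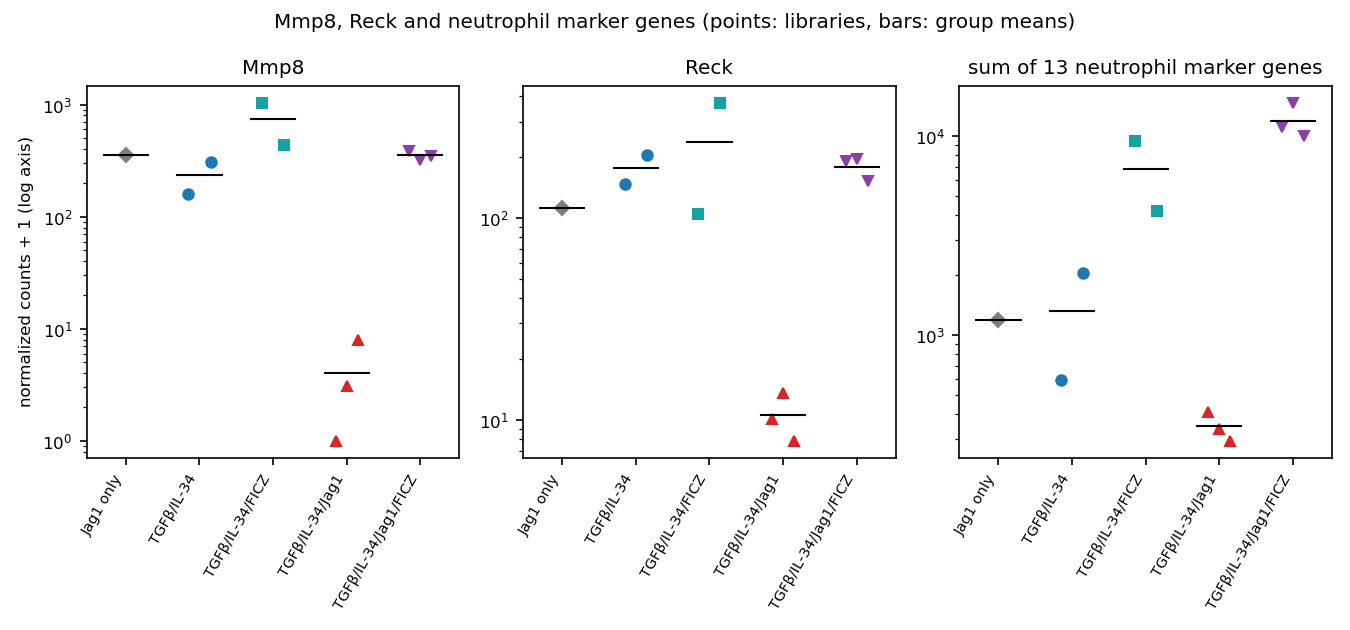
Normalized counts + 1 (log axis) of Mmp8, of the metalloproteinase inhibitor Reck and of the sum of 13 neutrophil marker genes in each library, with points for libraries and bars for group means. All 3 were lowest in TGFβ/IL-34/Jag1, where Mmp8 was at 0 to 6.87, Reck at 6.85 to 12.5 and the sum at 294 to 408.

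Mmp12 was highest in TGFβ/IL-34, at 37644 and 38809 normalized counts, where it ranked 33rd and 29th of all genes. The TGFβ/IL-34/FICZ libraries had 9961 and 26458. With Jag1 the values were 8673, 10949 and 15009, with Jag1 and FICZ 9150, 9215 and 13574, and with Jag1 only 6880. Both TGFβ/IL-34 libraries were thus above all 9 others, and the ranges of the other 3 groups with TGFβ and IL-34 overlapped. Mmp12 fell with Jag1 by 1.76 on the log2 scale (SE 0.381, 95% interval −2.61 to −0.92, adjusted p 0.0222, limma). Within the 2 experiment codes of the descriptions that hold both groups the differences were −1.78 and −1.37. The call was kept in 11 of 16 alternatives and lost without either TGFβ/IL-34 library (adjusted p 0.137 and 0.178) and without replicate 1 or 2 of TGFβ/IL-34/Jag1 (0.0790 and 0.0593), and without a filter on low values (0.0535). With FICZ and no Jag1 the log2 difference was −1.24 (SE 0.418, adjusted p 0.285). When the library at 26458 was left out, leaving 1 in that group, it was −1.94. By the library names, that 1 library came from another flow cell than both TGFβ/IL-34 libraries, and in the sample descriptions from another experiment code. Within the described experiment code that holds both groups the difference was −0.51, between 26458 and 37644. In the authors' metadata the TGFβ/IL-34 library at 37644 instead shares its code with the TGFβ/IL-34/FICZ library at 9961. FICZ added to Jag1 gave −0.11 (95% interval −0.86 to 0.65, adjusted p 0.887).

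The macrophage markers Adgre1, Csf1r and Cd68 summed to 39112 and 40011 in TGFβ/IL-34, 15663 and 28172 in TGFβ/IL-34/FICZ, 20187 to 40409 in TGFβ/IL-34/Jag1, 13120 to 20453 in TGFβ/IL-34/Jag1/FICZ and 7345 in Jag1 only. By itself, Adgre1 was at 15328 and 16709 in TGFβ/IL-34, 6657 to 8771 in TGFβ/IL-34/Jag1 and 3548 in Jag1 only. Csf1r was at 22668 and 23145, 13200 to 31394 and 2001 in the same order. Cd68 was at 634 and 639, 244 to 322 and 1796. The sum of all 10 macrophage genes of the list was 41027 and 41877 in TGFβ/IL-34 and 31104, 46678 and 65466 in TGFβ/IL-34/Jag1. The TGFβ/IL-34/Jag1 library with the highest sum of the 3 markers (40409) had 15009 of Mmp12. Adgre1 was at most 8771 in that group, so the make-up of the sum differed from that in TGFβ/IL-34. Of the list of 10 macrophage genes, 9 were tested. With Jag1 without FICZ, 4 of them rose (Mertk, C1qa, C1qb and C1qc) and 2 fell (Adgre1 and Cd68). Over all genes 2.64% rose and 3.96% fell. Their part in the Mmp12 result was not tested.

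Mmp13, a collagenase of connective tissue and cartilage, had 10.5 and 19.9 normalized counts in TGFβ/IL-34 and 6.91 and 8.06 in TGFβ/IL-34/FICZ. With TGFβ/IL-34/Jag1 it had 45.5, 125 and 162, and with TGFβ/IL-34/Jag1/FICZ 36.3, 15.7 and 20.99. Jag1 only had 691. Libraries with Jag1 and no FICZ were above all others, and the 2 groups without Jag1 were low. Mmp13 rose with Jag1 by 2.66 (SE 0.598, 95% interval 1.33 to 3.99, adjusted p 0.0263, limma) and fell with FICZ in the presence of Jag1 by 2.04 on the log2 scale (SE 0.535, adjusted p 0.0248, limma). The first call was kept in 9 of 16 alternatives. It was lost without either TGFβ/IL-34 library (adjusted p 0.226 and 0.104) or without replicate 2 or 3 of TGFβ/IL-34/Jag1 (0.0779 and 0.0814), and the adjusted p was 0.0659 with a replicate block, 0.0549 with only the 2 groups fitted and 0.0538 without a filter. The second was kept in 13 of 17 and was lost without replicate 2 or 3 of either group (0.0740 to 0.105). Within experiment codes of the descriptions the first difference was 3.45 and 2.96, and the second was −0.32, −2.92 and −2.89. The 3.45 pairs 125 with 10.5 in TGFβ/IL-34. In the authors' metadata the library at 10.5 instead shares its code with the TGFβ/IL-34/Jag1 library at 45.5.

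Mmp14 had the smallest fold range over the libraries of the members. It stood at 6026 and 5766 normalized counts in TGFβ/IL-34, at 5350 and 4487 in TGFβ/IL-34/FICZ, at 6316, 6299 and 6593 in TGFβ/IL-34/Jag1 and at 4705, 3664 and 4431 in TGFβ/IL-34/Jag1/FICZ. Jag1 only had 3584, the lowest value. FICZ in the presence of Jag1 lowered Mmp14 by a log2 fold change of −0.59 (SE 0.144, 95% interval −0.91 to −0.27, adjusted p 0.0173, limma), with no overlap between the groups and a lower value in each of the 3 pairs. The call was kept in 14 of 17 alternatives. It was lost without replicate 2 or 3 of TGFβ/IL-34/Jag1 (adjusted p 0.05003 and 0.0576) and when replicate 2 of TGFβ/IL-34/Jag1/FICZ was left out (0.0963). The effect of FICZ without Jag1 was −0.27 (95% interval −0.66 to 0.13, adjusted p 0.385), and the 2 FICZ effects differed by −0.33 (95% interval −0.83 to 0.18, adjusted p 0.416).

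Timp3, the inhibitor that stays bound to the matrix, was higher in both FICZ groups. Its values were 18.1 and 40.9 normalized counts in TGFβ/IL-34, 105 and 85.2 in TGFβ/IL-34/FICZ, 5.11, 55.1 and 2.64 in TGFβ/IL-34/Jag1, 184, 91.4 and 134 in TGFβ/IL-34/Jag1/FICZ, and 71.3 in Jag1 only. The FICZ libraries lay above all libraries without FICZ, with replicate 2 of TGFβ/IL-34/Jag1 high in its own group. Timp3 rose with FICZ in the presence of Jag1 by 3.62 (SE 0.860, 95% interval 1.71 to 5.53, adjusted p 0.0155, limma). The pairs of the same experiment code differed by 4.92, 0.72 and 5.21. The call was kept in 14 of 17 alternatives and was lost without replicate 1 or 3 of TGFβ/IL-34/Jag1 (adjusted p 0.0629 and 0.0563) and when replicate 1 of TGFβ/IL-34/Jag1/FICZ was left out (0.0651). Without Jag1, the FICZ difference was 1.75 (95% interval −0.59 to 4.09, adjusted p 0.349), and the test of the difference between the 2 FICZ effects gave 1.87 (adjusted p 0.432). Timp3 lies within Syn3, a gene on the other strand, which stood at 392, 429 and 366 in TGFβ/IL-34/Jag1/FICZ against 114, 139 and 99.1 in TGFβ/IL-34/Jag1, and at 134 and 190 with FICZ alone against 196 and 173 in TGFβ/IL-34. The strand setting of the counting is not given in the sources used here. Only the spans of the 2 genes were compared and not their exons, so whether reads were shared is not known.

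No test was passed by Mmp2, Mmp19, Timp1 or Timp2. Mmp2, a gelatinase, ranged from 19.6 to 137 normalized counts in the 10 libraries with TGFβ and IL-34, and its largest difference was −1.12 (95% interval −2.54 to 0.31, adjusted p 0.298) for Jag1 in the presence of FICZ. Mmp19, a metalloproteinase expressed in many tissues, ranged from 237 to 668, with differences of −0.22 to 0.31 in the 4 two-group comparisons. Timp1, a secreted inhibitor, varied widely within groups, with 62.4 and 2.79 in TGFβ/IL-34/FICZ and 5.49, 52.5 and 209 in TGFβ/IL-34/Jag1/FICZ. Timp2, a secreted inhibitor that also takes part in the activation of pro-Mmp2 by Mmp14, had 531 and 79.3 in TGFβ/IL-34/FICZ and 78.3 to 204 in the other libraries with TGFβ and IL-34. Each 95% interval of a difference in these 4 genes held 0. Timp1 lies within Syn1 (8.24 to 127) and Mmp19 overlaps Tmem198b (616 to 2449), both on the other strand, with the same limit as for Timp3. When replicate 2 of TGFβ/IL-34/FICZ (the library at 79.3) was left out, Timp2 had a FICZ difference without Jag1 of 2.04. The Jag1 difference with FICZ was then −2.22. This leaves that group with 1 library assumed to vary like the others, and by its name from another flow cell than both TGFβ/IL-34 libraries. Within experiment codes of the descriptions, the FICZ difference without Jag1 was −0.34, and the Jag1 difference with FICZ was −2.52 and −0.018. The first pairs 79.3 with 100 in replicate 1 of TGFβ/IL-34. In the authors' metadata that TGFβ/IL-34 library instead shares its code with the TGFβ/IL-34/FICZ library at 531.

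**Figure D3:**
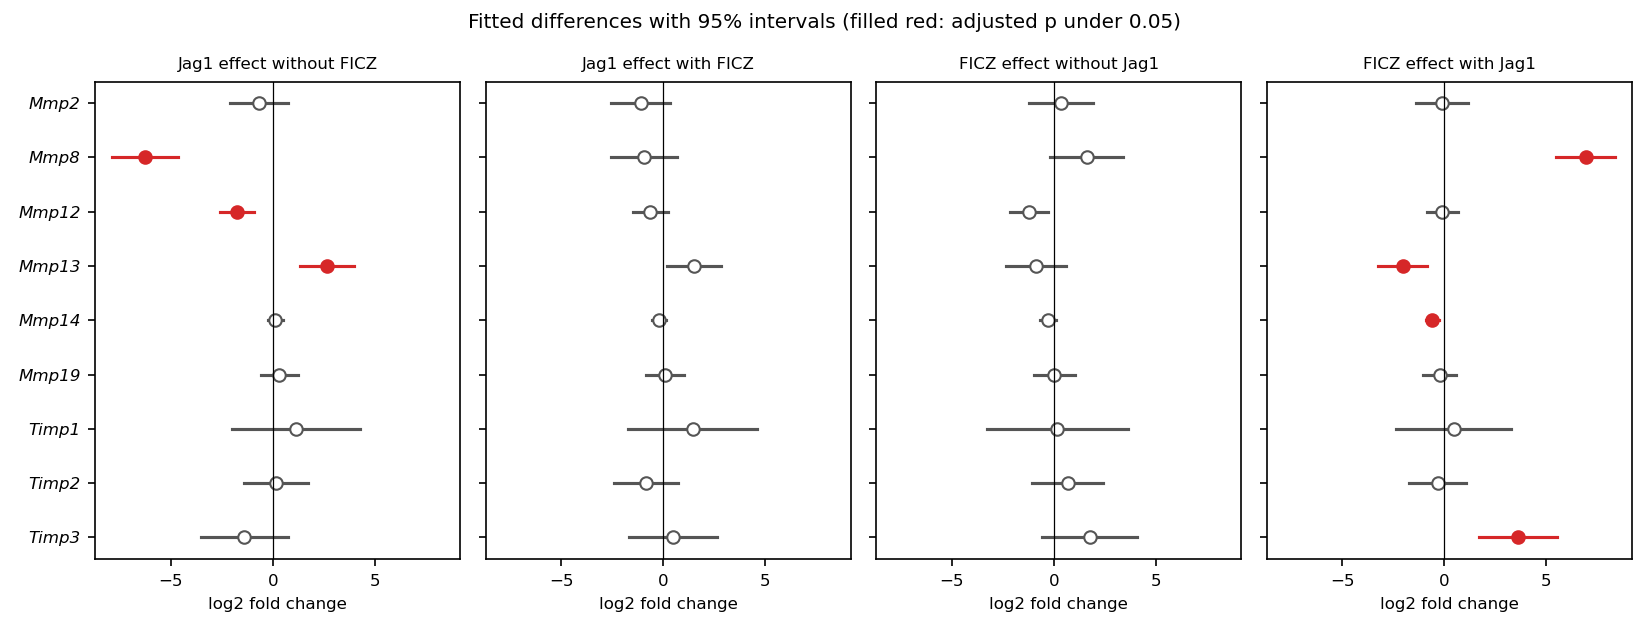
Log2 fold changes of the 9 tested members with their 95% intervals (horizontal axis) in the 4 two-group comparisons, where filled red marks pass an adjusted p of 0.05. Marks pass for Mmp8, Mmp12 and Mmp13 with Jag1 without FICZ (−6.26, −1.76 and 2.66) and for Mmp8, Mmp13, Mmp14 and Timp3 with FICZ in the presence of Jag1 (6.92, −2.04, −0.59 and 3.62).

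Over the set, Jag1 without FICZ changed 3 of 9 tested members, 1 higher and 2 lower. In that comparison 6.6% of the 13095 genes were called, 2.64% higher and 3.96% lower, and the median log2 fold change was 0.12 over the members and −0.0041 over all genes. FICZ without Jag1 changed none of the 9, with 1 member (Mmp12) at an unadjusted p under 0.05, and 0.0229% of all genes were called, 0.0153% higher and 0.00764% lower. The members' median was 0.17 and that of all genes −0.020. FICZ in the presence of Jag1 changed 4 of 9, 2 higher and 2 lower, against 17.7% of all genes (10.9% higher and 6.71% lower), with medians of −0.11 and −0.0083. Jag1 in the presence of FICZ changed none, with 1 member (Mmp13) at an unadjusted p under 0.05, against 2.02% of all genes (1.41% higher and 0.603% lower), with medians of −0.21 and 0.047. The interaction was passed by 1 of 9, against 1.39% of all genes (1.17% higher and 0.221% lower), with medians of −0.24 and 0.067. These comparisons share libraries, among them the TGFβ/IL-34 and TGFβ/IL-34/Jag1 groups.

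The Jag1 only library had no replicate and entered no comparison. Mmp9, the gelatinase of migrating leukocytes, was at 961 normalized counts there, at 0 in 4 libraries and at 2.00 to 8.29 in the other 6, so it was not tested. Its level in Jag1 only was 116 times that of the next highest library. Mmp13 at 691 was 4.27 times, Mmp19 at 1181 was 1.77 times and Mmp2 at 145 was 1.06 times the next highest. Mmp12 and Mmp14 were the 2 members for which this library was the lowest, and the remaining 4 lay within the range of the others. The stroma markers of Jag1 only summed to 327, close to the 301 of replicate 3 of TGFβ/IL-34/Jag1, in which Mmp9 was at 7.67 and Mmp13 at 162. Its sum of neutrophil markers, 1184, lay within the range of TGFβ/IL-34. Jag1 only lacks both TGFβ and IL-34, so the absence of the one and the other cannot be told apart.

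Which members could come from the OP9 stroma was described by setting them beside the defining stroma markers of each library. These summed to 461, 817 and 301 in TGFβ/IL-34/Jag1 and to 530, 1369 and 3752 in TGFβ/IL-34/Jag1/FICZ. In the second group Timp1 (5.49, 52.5 and 209) and Mmp2 (19.6, 55.01 and 83.0) had the same order as the stroma sum, which varied 7.08-fold while Timp1 varied 38.1-fold and Mmp2 4.23-fold. Mmp12 had that order too and varied 1.48-fold. In the first group Timp3 alone of the members had the order of the stroma sum (5.11, 55.1 and 2.64). Mmp13 fell with FICZ while the stroma sum was higher in each pair of libraries. Mmp2, Timp1, Timp2 and Timp3 were also present at 47.6 to 137, 2.79 to 62.4, 79.3 to 531 and 18.1 to 105 in the 4 libraries without Jag1, where Col1a2 was at 0. Over the whole list of 17 stroma genes, 9 of 14 tested rose and 1 fell with Jag1 without FICZ, against 2.64% and 3.96% of all genes. With FICZ in the presence of Jag1, 4 rose and none fell, against 10.9% and 6.71%. Of the defining markers only Pdgfrb passed there (2.23, adjusted p 0.00514, limma). Without Jag1, Pdgfrb averaged 30.7 with FICZ and 6.67 without it. Cxcl12 had a difference of −1.18 for FICZ in the presence of Jag1 (adjusted p 0.390, limma), and Dcn and Lum were at 0 in every library. The list's sum was 710 to 1580 in TGFβ/IL-34/Jag1 and 15565 to 17876 with FICZ added, of which Thy1, a surface protein that was also at 790 to 12178 without Jag1, made up 12188 to 16084. The part of stromal RNA in the members' results was not tested.

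**Figure D4:**
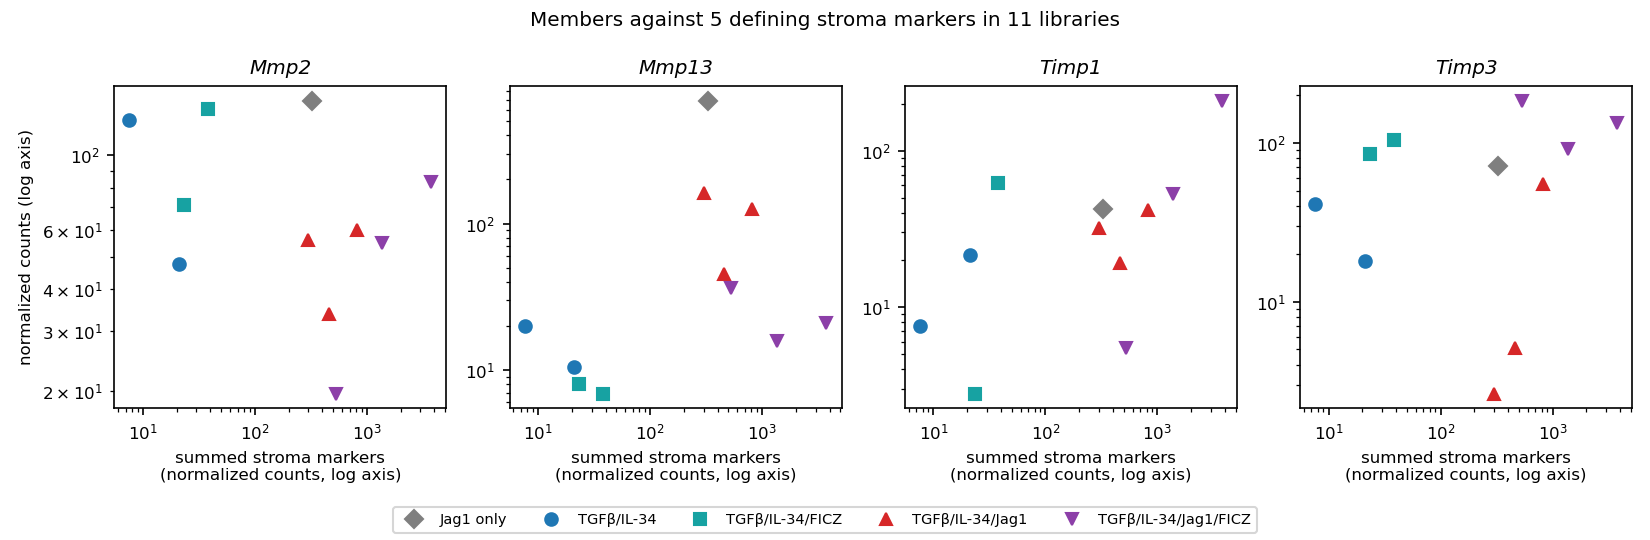
Normalized counts of Mmp2, Mmp13, Timp1 and Timp3 against the sum of 5 defining stroma markers in each of the 11 libraries, both on log axes. Mmp2, Timp1 and Timp3 reached 137, 62.4 and 105 in libraries without Jag1 with a stroma sum under 40, and Mmp13 stayed at 19.9 or less there.

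Mmp12, Mmp13 and Mmp8 share a cluster of 10 metalloproteinase genes on chromosome 9, which spans 427 kb from the left end of Mmp13 (chr9:7272514-7283331) through Mmp12 (chr9:7344381-7369499) and Mmp8 (chr9:7558457-7568487) to Mmp7. The other 7 genes of the cluster never reached 10 normalized counts, and 3 of them (Mmp1a, Mmp1b and Mmp3) were at 0 in every library. Of these, Mmp1b overlaps Mmp12 on the other strand. With Jag1 and no FICZ, the 3 expressed neighbours went different ways, Mmp8 and Mmp12 lower and Mmp13 higher. The other members lie apart, Mmp2 on chromosome 8, Mmp9 on 2, Mmp14 on 14, Mmp19 and Timp3 on 10, Timp1 on X and Timp2 on 11.

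**Figure D5:**
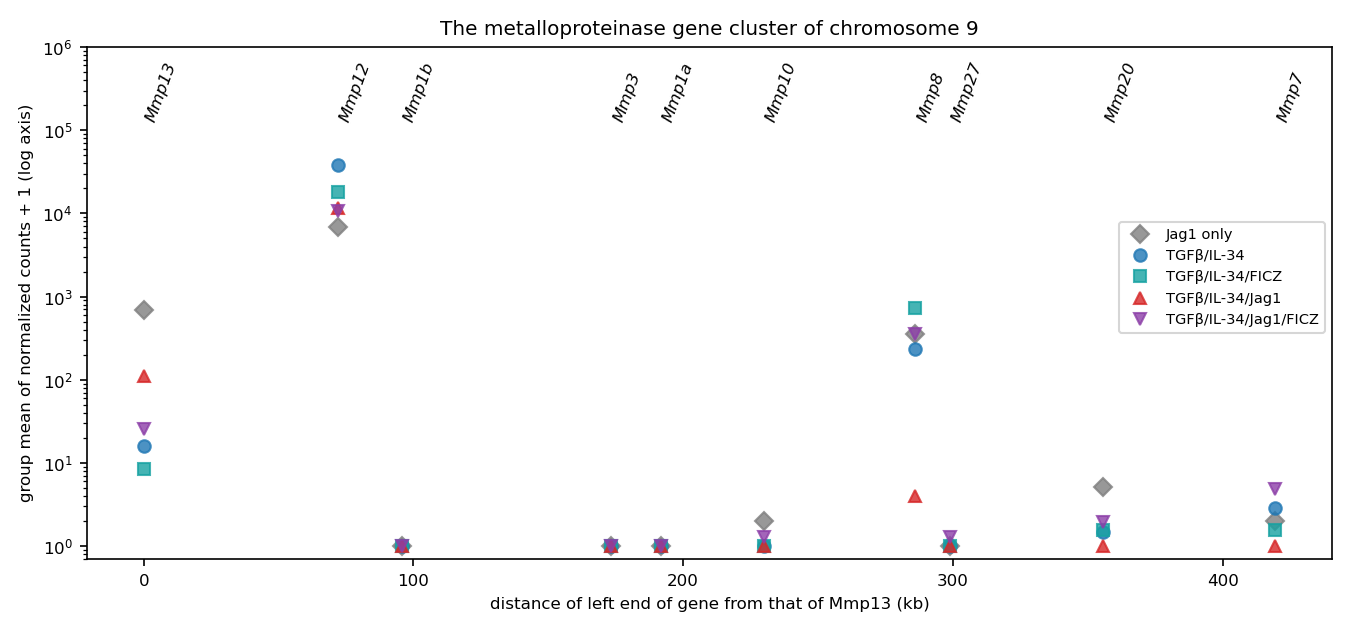
Group means of normalized counts + 1 (log axis) for the 10 genes of the chromosome 9 cluster, by the distance of each gene's left end from that of Mmp13 in kb. Mmp13, Mmp12 and Mmp8 are the 3 genes that reach 10, and 7 stay under it in all 11 libraries.

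Of the other family members, 17 in number with Timp4, 11 stayed under 10 in every library, and 6 of these 11 were at 0 throughout. Only 4 could be tested. With FICZ in the presence of Jag1, 2 of these rose and none fell, against 10.9% and 6.71% of all genes. The median log2 fold change of the 4 was 1.13 against −0.0083 over all genes. Mmp25, a membrane-anchored metalloproteinase of leukocytes, rose by 1.02 (SE 0.227, adjusted p 0.0113, limma), from 11572, 12508 and 7480 to 21172, 22064 and 19159 normalized counts. Its group mean per kb was 2323 ± 591 (SD, n = 3) with Jag1 and 4593 ± 329 (SD, n = 3) with Jag1 and FICZ, where Mmp12 had 3200 ± 890 and 2952 ± 703 (SD, n = 3 each). Mmp23, also membrane-bound, rose by 1.24 (SE 0.368, adjusted p 0.0417).

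Of 17 regulators of these enzymes, 14 were tested. With Jag1 and no FICZ, 1 fell and none rose, and with FICZ in the presence of Jag1, 6 rose and none fell, with medians of −0.44 and 1.00. Over all genes 3.96% fell in the first comparison and 10.9% rose in the second, with medians of −0.0041 and −0.0083. Reck, a membrane-anchored inhibitor of several metalloproteinases, was the one that fell. It went from 147 and 205 normalized counts in TGFβ/IL-34 to 9.10, 12.5 and 6.85 in TGFβ/IL-34/Jag1, and stood at 190, 194 and 151 in TGFβ/IL-34/Jag1/FICZ and at 104 and 370 in TGFβ/IL-34/FICZ. TGFβ/IL-34/Jag1 was below every other group, as it was for Mmp8. The log2 fold changes of Reck were −4.09 with Jag1 (SE 0.503, adjusted p 0.00115), 4.12 with FICZ in the presence of Jag1 (SE 0.450, adjusted p 0.000233) and 3.95 for the interaction (SE 0.711, adjusted p 0.0382, limma). Thbs1, a matrix protein that binds metalloproteinases and activates TGFβ, rose with FICZ in the presence of Jag1 by 3.44 (SE 0.272, adjusted p 4e-05). Serpinb2, an inhibitor of the plasminogen activators that feed metalloproteinase activation, rose by 6.56 (SE 0.680, adjusted p 0.000180). It was at 3.35, 0 and 7.74 in TGFβ/IL-34/Jag1 and at 226, 373 and 379 with FICZ added.

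Among related proteases, 2 of 11 tested Adam and Adamts genes rose with FICZ in the presence of Jag1 and none fell (median 0.38), against 10.9% of all genes that rose. They were Adamts9, which cuts proteoglycans (2.29, SE 0.510, adjusted p 0.0109), and the membrane protease Adam19 (1.83, SE 0.387, adjusted p 0.00868, limma). Of the 3 tested cathepsins, lysosomal proteases that can also cut matrix, Ctsb rose by 0.82 and Ctsl fell by 1.03 on the log2 scale with Jag1 without FICZ (adjusted p 0.0128 and 0.00332). With FICZ in the presence of Jag1, Ctsb and Ctss fell, by 1.16 and 0.68 on the log2 scale (adjusted p 0.000434 and 0.0209, limma). Over all genes, 2.64% rose and 3.96% fell with Jag1 without FICZ, and 6.71% fell with FICZ in the presence of Jag1.

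The genes most like each tested member were found by Pearson's r over the 11 samples, which share 5 groups. The 3 highest were Il21r, Acsbg1 and Abcc3 for Mmp8 (r 0.980, 0.976 and 0.975), Alg11, Plbd2 and Prkd3 for Mmp12 (0.956, 0.944 and 0.937), and Slc12a7, C77080 and Txlnb for Mmp13 (0.957, 0.944 and 0.933). For Mmp14 they were H2-Ab1, a chain of the class II antigen-presenting molecule, Niban2 and Tfpi (0.958, 0.956 and 0.954). Dctn4, Il18bp and Zscan2 were most like Mmp19 (0.949, 0.930 and 0.924), a pattern in which the Jag1 only library stands highest. For Timp3 they were Ido2, Ephb2 and Pycr1 (0.941, 0.930 and 0.929), and for Timp2 Nol12, Dcxr and Ift57 (0.932, 0.922 and 0.907). Timp1 (Akr1b8, Kctd11 and Cdnf, 0.839, 0.817 and 0.809) and Mmp2 (9030624G23Rik, Clmp and Eps8l2, 0.863, 0.859 and 0.836) had the least similar partners. These values describe the samples and carry no test.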

How the data were processed

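Libraries of sorted cells were sequenced by the authors, quantified with salmon and imported with tximport on Ensembl transcripts of GRCm39. The deposited table holds normalized counts made by the authors with DESeq2, a signal per gene that is not whole, and depth per library was estimated from the spacing of low values. In genes with 1 transcript of at least 2000 bases, 97.5% to 99.3% of low values (up to 15 steps) fell within 0.1 of a whole step, but over all genes only 51.4% to 58.0% did, so no count test was run.

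Groups followed the sample titles. Genes with at least 10 normalized counts in at least 2 libraries were tested in limma 3.58.1 (R 4.3.3) on log2(value + 1), with 1 mean per group over all 11 libraries, 6 residual degrees of freedom, a mean-variance trend and Benjamini-Hochberg adjustment over 13095 genes per contrast at 0.05. The program was tested on simulated data. P-values measure the spread between these samples. The members and gene lists were chosen with earlier results of these data known. Named were all members, up to 4 called genes per list and contrast with a mean of at least 50, and the 3 genes most like each member. One listed gene that this rule names is not reported here.

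Same-numbered replicates of the 2 groups with TGFβ/IL-34/Jag1 (with and without FICZ) share an experiment code. Their deviations from group means correlated at 0.153, 0.122 and 0.166, so differences within these pairs are given. The main fit, from which the SE, intervals and p-values come, did not use the pairing. Blocks for replicate or experiment code were run as alternatives only. In the other contrasts numbers and codes did not agree or correlations were under 0.1. For 1 sample, replicate 1 of TGFβ/IL-34, the code in the authors' metadata (AA45) differs from that of the description (AA47). Both were tried as blocks, whereas differences within experiment codes used the description only. Canonical transcripts of GENCODE vM39 gave lengths and starts. A metadata table was used for codes only. A code in the library names of the sample descriptions was read as the flow cell, although it is not labelled as such. Replicate 1 of TGFβ/IL-34/FICZ and replicate 1 of TGFβ/IL-34/Jag1/FICZ shared 1 such code, and all other libraries shared another.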

Additional observations from a re-analysis of the deposited data

Results flagged for a closer look

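The effect of FICZ on Mmp8 differed with and without Jag1, by a log2 value of 5.32 in the interaction term (adjusted p 0.0430, limma). Reads of Mmp8 in TGFβ/IL-34/Jag1 were few, so the size of this difference depends on the added 1. It was lost with a pseudocount of 0.5 (adjusted p 0.0632), without a filter (0.0943), with array weights (0.279), with a block for either version of the experiment code (0.0817 and 0.0515) and when any of 7 of the 10 libraries was left out.

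The Jag1 only library, which entered no comparison, had values above all 10 other libraries for 4 members. These were Mmp2 at 145.1, Mmp9 at 960.8, Mmp13 at 691.0 and Mmp19 at 1181 normalized counts. It is a single library, and these differences were not tested.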

How the results depend on the processing

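Of the 45 differences of members, 8 were called. Across 11 alternatives and 10 fits that left out 1 library, no called difference changed direction, and Mmp8 was called in every alternative run for the Jag1 effect without FICZ and for FICZ in the presence of Jag1. The number of called members with Jag1 without FICZ was 3, 1 without a filter on low values, and 1 to 2 when a library was left out. The replicate block, which pairs samples of the same number, gave 2 (Mmp13 had an adjusted p of 0.0659, limma). In this comparison samples of the same number carry different experiment codes in the sample descriptions, so that block does not pair by experiment. For FICZ in the presence of Jag1 the number was 4 and 1 to 3 when a library was left out. It was 0 and 0 to 2 for FICZ without Jag1, 0 and 0 to 1 for Jag1 with FICZ, and 1 and 0 to 3 for the interaction, which gave 0 with a pseudocount of 0.5, without a filter, with array weights and with a block for either version of the experiment code. Some uncalled differences, up to 1.43 in size, changed sign (45 values over 19 differences), none of them called, and the cause was not tested. With quantile normalization Timp1 was at −0.041 for FICZ with Jag1 and −0.35 for the interaction. Blocking on the code in the sample descriptions put Mmp19 at −0.23 for FICZ without Jag1 and 0.0073 for the interaction, and Timp1 at −0.32 for the interaction. That interaction of Timp1 was −0.30 with the code of the authors' file, an alternative added after the data were seen, and −0.080 with array weights. The replicate block gave −0.056 for Timp2 with Jag1 without FICZ. With the flow cell as a block Mmp19 was at −0.28 for FICZ without Jag1, and Mmp2 and Mmp12 at 0.094 and 0.15 for FICZ with Jag1. Leaving out single libraries gave Mmp12 from −0.29 to 0.10, Mmp19 from −0.49 to 0.13, Mmp2 from −0.54 to 0.47 and Timp1 from −0.71 to 1.79 for FICZ with Jag1. It gave Mmp19 from −0.46 to 0.48, Mmp2 from −0.36 to 1.04, Timp1 from −1.86 to 2.20 and Timp2 from −0.69 to 2.04 for FICZ without Jag1. It gave Mmp19 from −0.71 to 0.23, Mmp2 from −1.14 to 0.26, Timp1 from −1.75 to 2.31 and Timp2 from −2.37 to 0.36 for the interaction. It gave Mmp12 from −1.34 to 0.070, Mmp19 from −0.39 to 0.55, Timp1 from −0.60 to 3.46 and Timp2 from −2.22 to 0.51 for Jag1 with FICZ. It gave Mmp19 from −0.045 to 0.58, Mmp2 from −1.38 to 0.021 and Timp2 from −0.21 to 0.51 for Jag1 without FICZ. Depth limits Mmp8, Mmp9 and Timp3, which were at or under 3 reads in some libraries.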
